A study of Mus musculus with 8 samples.

Results

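The creatine kinase system and the genes that supply its substrate were followed in cultured mouse muscle stem cells. These are the Pax7-expressing cells that give rise to new muscle fibres. The set held 7 genes, picked by name out of 20976 in the table: the kinases Ckb, Ckm, Ckmt1 and Ckmt2, the creatine synthesis enzymes Gatm and Gamt, and the creatine transporter Slc6a8. It was chosen because Ckmt1 rose from near silence in these same libraries. The difference of Ckmt1 between the groups is therefore given as a description, with no test.

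Cells were sorted by flow cytometry from Chd4LoxP/LoxP mice, expanded for a short time in medium with serum and bFGF, and infected with adenovirus. The Cre group (4 libraries, numbered 1 to 4) received adenovirus with CRE recombinase, which deletes exons 12 to 21 of Chd4, a chromatin remodelling ATPase and subunit of NuRD. The GFP group (4 libraries, numbered 1 to 4) received AdenoGFP and kept the loxP-flanked gene. All 8 libraries thus came from cells with loxP-flanked Chd4 that had been exposed to adenovirus, and no library combined Cre with a Chd4 gene that lacks loxP sites. The design text gives 4 mice per condition, and neither the age of the mice nor the Cre recombination rate per cell is stated in the sources used here. The values are read counts per gene, scaled between libraries and rounded to whole numbers before deposition, and are called scaled reads here. Scaled totals ran from 27897860 to 28876348, and the depth estimated from the spacing of low values from 23.3 to 38.0 M reads. Chd4 itself stood between 3686 and 5480 scaled reads in Cre and between 15904 and 20121 in GFP, so no library went against its label. Markers of muscle stem cells and myoblasts were abundant in every library, with a sum over 7 genes (Pax7, Myf5, Myod1, Des, Itga7, Vcam1 and Cdh15) of 92447 to 112051 scaled reads. Most of that sum was Myod1 and Des, and Myf5 was as low as 298. Myocyte markers (Myog, Myh3, Acta1, Tnnt3 and Mymk) were abundant too, with a sum of 45257 to 222341 scaled reads. Markers of other cell types were uneven. Dcn, Pi16, Cdh5, Itgam, Snap25, Kcnj8 and Epcam stayed under 30 scaled reads in every library, while Rgs5 reached 53834, Cldn4 2013, Krt18 1294, Abcc9 877, Cd68 396 and Tek 313.

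Creatine kinases move a phosphate group between ATP and creatine, and phosphocreatine serves muscle and brain as a store from which ATP is refilled during sudden demand. Ckm, the muscle type, and Ckb, the brain type, are cytosolic, and Ckb gives way to Ckm as muscle cells mature. Ckmt1 (the ubiquitous type, best known from brain and epithelia) and Ckmt2 (the sarcomeric type of heart and skeletal muscle) sit in the space between the mitochondrial membranes, where they charge creatine with freshly made ATP. Creatine is made from arginine and glycine by Gatm and then Gamt, mostly in kidney, pancreas and liver, and muscle takes it up from blood through Slc6a8.

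Among the 7 genes, the transporter, the brain-type kinase and the first synthesis enzyme were the most abundant, and both muscle-specific kinases were low. Levels can be compared between genes only per length, so scaled reads were divided by the exonic length in kilobases (kb) from GENCODE M21. In GFP, Slc6a8 had 1019 ± 251 scaled reads per kb, Ckb 795 ± 116 and Gatm 708 ± 189 (SD, n = 4 each). The ranges of these 3 genes overlapped. Gamt followed at 228 ± 27.6, below every Gatm library. Ckmt2, below every Gamt library, had 98.4 ± 92.8 and Ckm 35.6 ± 20.6 scaled reads per kb, with overlapping ranges. Ckmt1 came last at 1.70 ± 0.947 (SD, n = 4 each), below every Ckm library. The order was the same in Cre, from Slc6a8 at 1241 ± 236 to Ckmt1 at 20.9 ± 7.72 scaled reads per kb (SD, n = 4 each), where the range of Ckmt1 (13.2 to 31.7) now overlapped that of Ckm (15.1 to 65.2). Of the summed level per kb of the 4 kinases, Ckb made up 86.4% ± 9.39 in GFP and 84.1% ± 8.85 in Cre, and Ckm 3.62% ± 1.84 and 3.38% ± 1.38 (SD, n = 4 each). RefSeq's gene table for GRCm38.p6 lists 2 Ckb pseudogenes, which makes the level of Ckb less certain. Pseudogenes of the other members were not searched for.

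**Figure D1:**
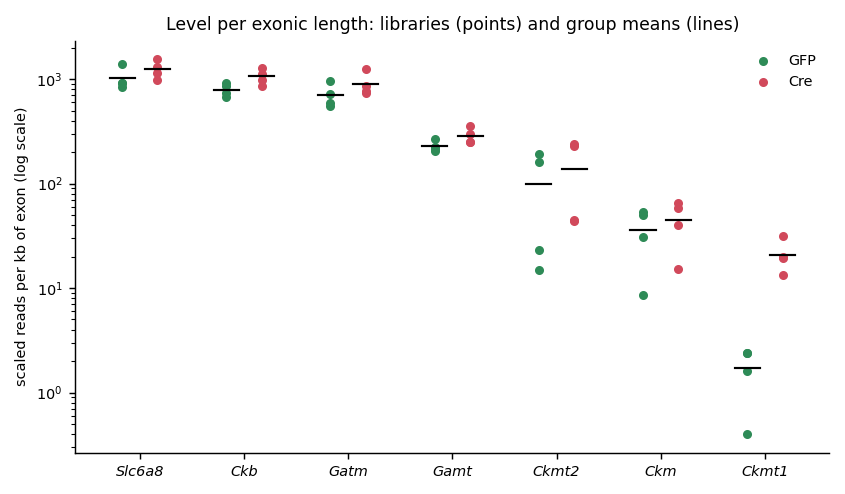
Level of the 7 genes per exonic length, in scaled reads per kb on a log axis; points are libraries (4 GFP, 4 Cre) and lines are group means. Ckmt1 is the gene whose groups do not overlap, with GFP means from 1019 for Slc6a8 down to 1.70 for Ckmt1.

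Ckmt1 was close to silent in GFP and low but present in Cre. The gene (ENSMUSG00000000308) spans bases 121357776 to 121363737 of chromosome 2 on the plus strand (GRCm38). It stood at 4, 6, 6 and 1 scaled reads in GFP libraries 1 to 4 and at 33, 49, 48 and 79 in Cre libraries 1 to 4. Every Cre library lay above every GFP library, and GFP library 4, the deepest of the 8, had the lowest value. The mean went from 4.25 ± 2.36 to 52.3 ± 19.3 scaled reads (SD, n = 4 each), a log2 difference of 3.43 on the log2(value + 1) scale. The pairs gave 2.77, 2.84, 2.81 and 5.32, the last being pair 4, whose GFP library held a single scaled read. Before scaling these values correspond to 15 or 16 reads over all GFP libraries and 210 over all Cre libraries. That is 0.134 to 0.143 reads per 1 M reads in GFP (exact Poisson 95% intervals reaching from 0.0748 to 0.231) and 1.84 in Cre (1.60 to 2.11). These intervals cover counting error only. Ckmt1 passed the filter on low values, a CPM (scaled reads per 1 M of the library total) of 1 in at least 4 libraries, only through its Cre libraries, so it had to differ between the groups.

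The last 10 bases of Ckmt1 overlap Strc, which is encoded on the opposite strand and did not exceed 6 scaled reads in any library. Of 5 epithelial markers, Cldn4 and Krt18 rose in the paired model introduced below, with log2 differences of 1.21 and 1.35 (limma, adjusted p = 5.73e-05 and 0.000288; 0.589 and 0.38 without the pairing). That model called 22.2% of all genes tested higher. The other 3 epithelial markers did not pass the filter. Krt8 stood at 2, 0, 0 and 0 scaled reads in GFP libraries 1 to 4 and at 31, 8, 8 and 2 in Cre libraries 1 to 4. Epcam stood at 3, 0, 3 and 4 in GFP and at 6, 8, 6 and 9 in Cre, with no overlap between the groups. Krt8 and Epcam were higher in Cre in 4 of 4 pairs. Of all genes tested, 27.9% were higher in 4 of 4 pairs and 4.41% were higher without overlap. Cdh1 had a mean of 21.8 in GFP and 35 in Cre and was higher in 3 of 4 pairs. Every Krt8 and Epcam value in Cre lay below the lowest Ckmt1 value there, 33 scaled reads, with no correction for gene length. The sum over the 5 ranged from 217 to 2024 in GFP and from 655 to 3372 in Cre. In Cre libraries 1 to 4 the sum was 3372, 820, 655 and 2482, most of it Cldn4 and Krt18. Ckmt1 stood at 33, 49, 48 and 79 in these libraries. A subset of 4 of 7 neural and glial markers had values, and their sum was 98 to 180 in GFP and 112 to 191 in Cre. The sum over pericyte markers, most of it Rgs5, was 7436 to 14372 in GFP and 24589 to 54608 in Cre, with Kcnj8 at or below 11. The endothelial sum was 141 to 182 and 276 to 408, with Cdh5 at or below 9. Within it, the log2 difference was 1.46 for Tek and 0.24 for Pecam1 (paired limma, adjusted p = 3.28e-05 and 0.168). Without the pairing, limma gave an adjusted p of 0.175 and 0.576. Kdr did not pass the filter, with a mean of 6.5 in GFP and 26.5 in Cre. The blood sum was 51 to 278 and 122 to 455, and the fibro-adipogenic sum 121 to 278 and 185 to 289. The part of such cells in the Ckmt1 difference was not tested. In bulk RNA, fewer cells of a type and less RNA per cell cannot be told apart.

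The sequences around the start sites of the 4 kinases are shown because Ckmt1 and the muscle-type kinases were low in GFP while Ckb was abundant, and because RefSeq gives Ckmt1 a pair of start sites. Each window holds 250 bases before and 50 after an annotated start (RefSeq, GRCm38.p6), written 5′ to 3′ on the strand of the gene. Capitals mark E-boxes of the kinds bound by myogenic factors, CAGCTG and CACCTG, both searched on both strands (CAGGTG is CACCTG read on the other strand). The windows lie at chr2:121357526-121357825 (plus) and chr2:121358360-121358659 (plus) for Ckmt1, chr13:91876836-91877135 (minus) for Ckmt2, chr7:19410844-19411143 (plus) for Ckm and chr12:111672289-111672588 (minus) for Ckb.
Ckmt1, start 1: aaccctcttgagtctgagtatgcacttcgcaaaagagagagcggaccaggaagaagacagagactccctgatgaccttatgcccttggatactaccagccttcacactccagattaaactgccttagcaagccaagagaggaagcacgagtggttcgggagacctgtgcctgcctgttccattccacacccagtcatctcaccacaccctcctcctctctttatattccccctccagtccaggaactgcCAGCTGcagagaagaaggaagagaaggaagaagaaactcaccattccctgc
Ckmt1, start 2: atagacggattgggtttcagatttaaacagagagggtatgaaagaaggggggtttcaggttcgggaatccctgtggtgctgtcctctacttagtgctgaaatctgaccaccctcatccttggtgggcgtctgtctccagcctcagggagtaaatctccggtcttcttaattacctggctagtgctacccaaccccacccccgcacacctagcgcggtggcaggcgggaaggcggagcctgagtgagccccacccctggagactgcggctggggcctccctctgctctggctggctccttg
Ckmt2: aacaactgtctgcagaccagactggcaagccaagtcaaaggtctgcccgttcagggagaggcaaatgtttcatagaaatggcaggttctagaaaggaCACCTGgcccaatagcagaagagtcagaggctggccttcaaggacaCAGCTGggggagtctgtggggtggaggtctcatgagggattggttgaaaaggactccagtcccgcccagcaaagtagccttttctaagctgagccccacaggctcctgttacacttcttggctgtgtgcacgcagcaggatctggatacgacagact
Ckm: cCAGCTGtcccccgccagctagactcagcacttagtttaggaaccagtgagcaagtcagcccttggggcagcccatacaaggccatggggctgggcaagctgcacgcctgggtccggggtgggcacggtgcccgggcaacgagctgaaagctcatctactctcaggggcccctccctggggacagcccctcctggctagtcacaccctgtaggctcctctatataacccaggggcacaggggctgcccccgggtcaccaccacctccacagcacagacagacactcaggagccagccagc
Ckb: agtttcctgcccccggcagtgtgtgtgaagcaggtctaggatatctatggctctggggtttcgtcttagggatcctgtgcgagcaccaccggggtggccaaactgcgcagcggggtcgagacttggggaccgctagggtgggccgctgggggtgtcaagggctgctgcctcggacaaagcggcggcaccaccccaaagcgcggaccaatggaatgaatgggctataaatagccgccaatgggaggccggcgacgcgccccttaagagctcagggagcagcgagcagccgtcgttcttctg
CAGCTG occurred once in the first Ckmt1 window, once in that of Ckmt2 and once in that of Ckm, at positions -1, -107 and -249 from the start. It was not found in the second Ckmt1 window or in those of Ckb, Gatm and Gamt. CACCTG occurred in the windows of Ckmt2 and Gatm. Over all 32851 windows of the RefSeq table, 16.3% hold CAGCTG and 20.2% hold CACCTG on either strand. The CpG dinucleotide occurred 4 times in the first Ckmt1 window, 10 times in the second, 4 times in that of Ckmt2 and 7 times in that of Ckm, against 22 in those of Ckb and Gatm and 14 in that of Gamt. The median over all windows was 7 (quartiles 3 and 20), so the first Ckmt1 window and that of Ckmt2 lay below the median and those of Ckb and Gatm above the upper quartile. Windows were found for 6 of the 7 genes, all but Slc6a8.

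The other 6 genes were compared with a model across all 12910 genes that passed the filter (limma on log2(value + 1), Benjamini-Hochberg adjustment, threshold 0.05). All 7 members passed the filter. Without regard to pairs, 0 of the 6 were called (limma; 0 with voom, and 1, Ckb, at an unadjusted p under 0.05), and 1.08% of all genes tested were. At an unadjusted p under 0.05, 956 of all 12910 genes were higher and 1201 lower. Around the group means, Cre and GFP libraries of equal number correlated across genes at 0.820 to 0.908 and those of unequal number at -0.597 to 0.477. A second fit therefore took the number as a blocking term and is named the paired model here. It called all 6 higher in Cre (voom with the block called 5, all but Ckm). It also called 22.2% of all genes tested higher and 21.7% lower. All 6, and Ckmt1, were higher in Cre in 4 of 4 pairs, as were 27.9% of all genes tested. Groups without overlap, higher in Cre, were found for 4.41% of all genes, and for none of these 6. The median log2 difference of the 6 was 0.38, against -0.0008 over all genes tested. Nothing is read from these shares, since the set was chosen on this contrast.

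**Figure D2:**
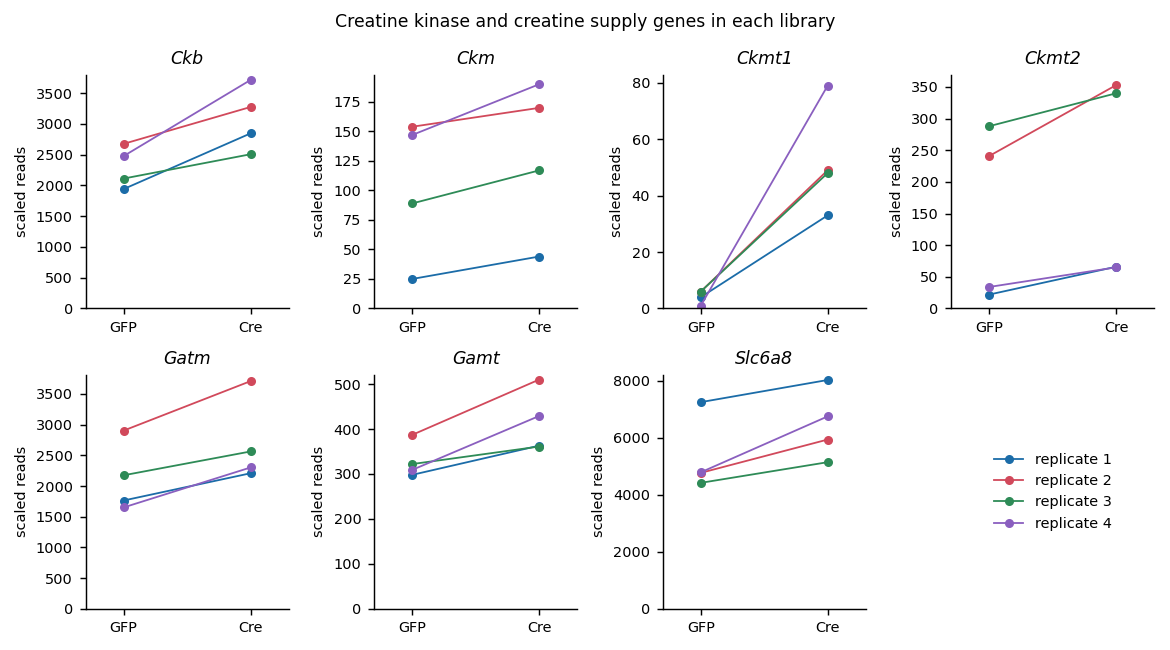
Scaled reads of each gene in the 4 GFP and 4 Cre libraries; lines join libraries of equal number and each axis starts at 0. Every line rises from GFP to Cre, while the groups overlap for each gene except Ckmt1.

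Ckb, the brain-type cytosolic kinase (chromosome 12, 111669361 to 111672338, minus strand), stood at 1940, 2675, 2111 and 2476 scaled reads in GFP libraries 1 to 4 and at 2845, 3274, 2506 and 3713 in Cre libraries 1 to 4. Cre library 3 lay below GFP library 2, so the groups overlapped although each pair rose. The mean went from 2301 ± 335 to 3085 ± 524 (SD, n = 4 each), a log2 difference of 0.42 ± 0.06 (SE, paired limma, adjusted p = 0.000409; SE 0.15 and adjusted p = 0.217 without the pairing).

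Ckm, the muscle-type cytosolic kinase (chromosome 7, 19411025 to 19422841, plus strand), stood at 25, 154, 89 and 147 scaled reads in GFP and at 44, 170, 117 and 190 in Cre, in the order of the replicate numbers. Replicate 1 was lowest in both groups, and the spread between replicates was wider than the difference between the groups. The log2 difference was 0.42 ± 0.14 (SE, paired limma, adjusted p = 0.0299; adjusted p = 0.813 without the pairing). That call was lost with voom (adjusted p = 0.0713) and without pair 1, 3 or 4 (adjusted p = 0.0858, 0.0785 and 0.0886), and leaving GFP library 1 out of the unpaired fit turned the difference to -0.15. The ratio of Ckb to Ckm, which falls as muscle cells mature, was 77.6, 17.4, 23.7 and 16.8 in GFP libraries 1 to 4 and 64.7, 19.3, 21.4 and 19.5 in Cre libraries 1 to 4. Replicate 1 had the highest ratio in both groups, and the ratio was lower in Cre in 2 of 4 pairs. Its mean on the log2 scale was 4.74 ± 1.01 in GFP and 4.73 ± 0.84 in Cre (SD, n = 4 each; two-sided exact permutation test, p = 1.0, smallest possible p 0.0286). Sign flips within pairs gave an exact p of 1.0, where the smallest possible is 0.125.

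Ckmt2, the sarcomeric mitochondrial kinase (chromosome 13, 91853387 to 91876885, minus strand), varied most between replicates. It stood at 22, 241, 288 and 34 scaled reads in GFP libraries 1 to 4 and at 66, 353, 340 and 65 in Cre libraries 1 to 4. In both groups replicates 1 and 4 were at or below 66 and replicates 2 and 3 at or above 241. The log2 difference was 0.81 ± 0.19 (SE, paired limma, adjusted p = 0.00553; SE 1.00 and adjusted p = 0.745 without the pairing). Leaving out 1 library moved the unpaired difference to between 0.17 (without GFP library 1) and 1.39 (without GFP library 3), and leaving out 1 pair moved the paired one to between 0.57 and 1.00. By pair it was 1.54, 0.55, 0.24 and 0.92, larger in the pairs where the level was low.

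Beside Ckm and Ckmt2, the myocyte markers Myog, Myh3, Acta1, Tnnt3 and Mymk were read. Their sum was 45257, 188906, 173922 and 93724 scaled reads in GFP libraries 1 to 4 and 59730, 222341, 191621 and 142166 in Cre libraries 1 to 4. It was lowest in replicate 1 in both groups, as was Ckm, and higher in Cre in each pair. In Cre the sum was highest in replicate 2 and Ckm in replicate 4. Ckmt2 was lowest in Cre in replicate 4 (65, against 66 in replicate 1). All 5 markers rose in the paired model (limma, adjusted p from 9.86e-05 to 0.00915), as did 22.2% of all genes tested. None was called without the pairing (limma; 0 with voom and 0 at an unadjusted p under 0.05), where 1.08% of all genes were. Of the 7 markers of muscle stem cells and myoblasts, 2 rose, 3 fell and 2 were not called in the paired model. That model called 21.7% of all genes lower. The part of the share of differentiating cells in the Ckm and Ckmt2 differences was not tested.

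**Figure D3:**
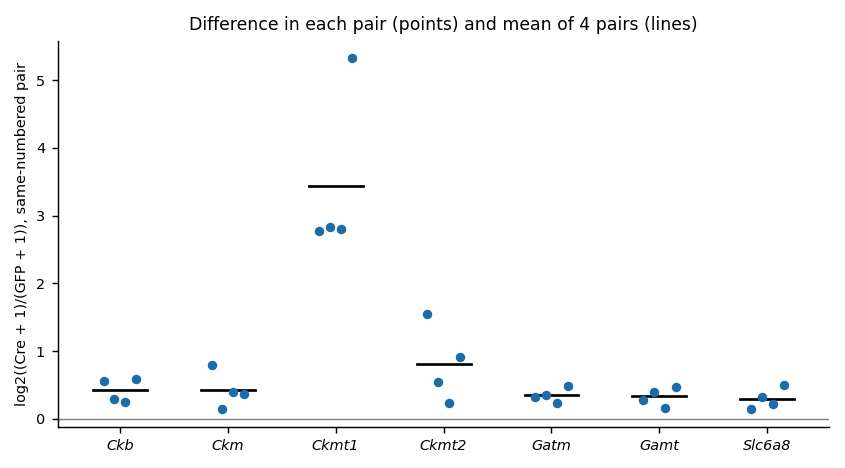
Log2 difference between Cre and GFP libraries of equal number, on the log2(value + 1) scale; points are the 4 pairs and lines their mean. All 28 points lie above 0, and pair 4 of Ckmt1 at 5.32 stands apart from its other 3 pairs.

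The genes of creatine synthesis and uptake rose by less and more evenly than Ckmt2. Gatm, the amidinotransferase that makes guanidinoacetate from arginine and glycine (chromosome 2, 122594467 to 122611303, minus strand), stood at 1764, 2903, 2175 and 1651 scaled reads in GFP and at 2208, 3709, 2563 and 2302 in Cre. Replicate 2 was highest in both groups. Its log2 difference was 0.35 ± 0.05 (SE, paired limma, adjusted p = 0.000313; 0.469 without the pairing). Gamt, the methyltransferase that completes creatine (chromosome 10, 80258151 to 80261012, minus strand), stood at 298, 387, 322 and 309 in GFP and at 363, 510, 361 and 429 in Cre. GFP library 2 lay above Cre libraries 1 and 3, so the groups overlapped. The log2 difference was 0.33 ± 0.08 (SE, paired limma, adjusted p = 0.00678; 0.313 without the pairing). Slc6a8, the sodium- and chloride-coupled creatine carrier (chromosome X, 73673150 to 73682502, plus strand), stood at 7251, 4769, 4419 and 4789 in GFP and at 8029, 5939, 5144 and 6752 in Cre. Replicate 1 was highest in both groups, where Ckm was lowest. The log2 difference was 0.29 ± 0.06 (SE, paired limma, adjusted p = 0.00179; 0.473 without the pairing). The calls of Ckb, Ckmt2, Gatm, Gamt and Slc6a8 in the paired model stood in all 12 alternatives tried with the block.

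Genes next to Ckmt1 on chromosome 2 were read in the same fits, since the choice of the set did not use them. Within 100 kb of the Ckmt1 gene body the table held 13 other genes, of which 9 passed the filter. None was called without the pairing (limma; 0 with voom, and 4 at an unadjusted p under 0.05). Of all 12910 genes tested, 1.08% were called in that fit. At an unadjusted p under 0.05, 956 of them were higher and 1201 lower. Leaving out GFP library 1 brought the count of neighbours called to 1, Map1a (limma, adjusted p = 0.0419). With the pairing 5 rose and 0 fell, beside 22.2% and 21.7% of all genes tested. Within 250 kb, where 15 genes passed the filter, 5 rose and 2 fell, and the median log2 difference was 0.07 in place of 0.23. The genes that fell were Wdr76 (-0.83) and Tubgcp4 (-0.27; paired limma, adjusted p = 0.000164 and 0.00857). The largest difference was that of Map1a, which encodes a microtubule-associated protein abundant in neurons and lies upstream of Ckmt1. It stood at 1988, 1196, 847 and 747 scaled reads in GFP libraries 1 to 4 and at 5275, 3212, 2827 and 2932 in Cre libraries 1 to 4. The groups did not overlap, and replicate 1 was highest in both. Higher in Cre without overlap were 4.41% of all genes tested. The log2 difference of Map1a was 1.64 ± 0.08 (SE, paired limma, adjusted p = 1.3e-06; 0.0658 without the pairing).

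The other 4 genes called differed by less. Ppip5k1, an inositol pyrophosphate kinase between Map1a and Ckmt1, had a log2 difference of 0.35 (paired limma, adjusted p = 0.00158). Serf2 had 0.40 (adjusted p = 0.000227), the splicing factor gene Mfap1b, which has a close copy in Mfap1a, 0.29 (adjusted p = 0.00712) and the DNA damage response gene Trp53bp1 0.23 (adjusted p = 0.00171). Catsper2, the nearest downstream gene that passed the filter, was at 72.0 ± 19.9 in GFP and 68.5 ± 19.3 in Cre (SD, n = 4 each), a difference of -0.07 (paired adjusted p = 0.7). Pdia3, Ell3 and Hypk had log2 differences of 0.07, -0.05 and 0.05 (paired adjusted p from 0.243 to 0.827). Strc, which meets the 3′ end of Ckmt1, stayed between 1 and 6 scaled reads in the 8 libraries. Map1a and Ppip5k1 overlap by 272 bases on opposite strands, Serf2 and Hypk overlap on the same strand, and whether counting used strand is not given in the sources used here. Gatm also lies on chromosome 2, 1.23 Mb beyond Ckmt1.

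**Figure D4:**
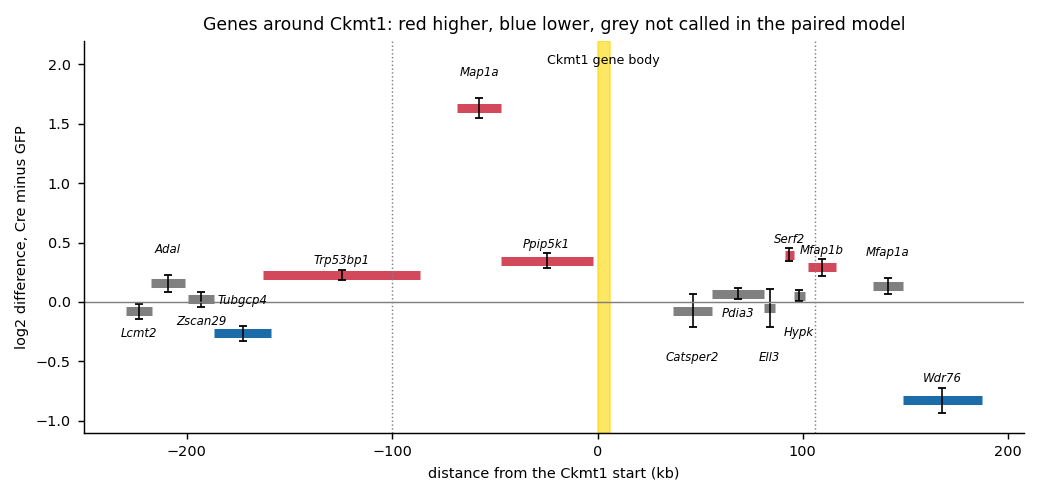
Log2 difference (Cre minus GFP) of the tested genes around Ckmt1 against distance from its start in kb; bars span gene bodies, error bars are the SE of the paired model, dotted lines mark 100 kb from the Ckmt1 body. Map1a stands at 1.64, and the tested genes within 100 kb downstream lie between -0.07 and 0.40.

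Genes with roles beside the creatine system were taken as 8 lists from textbook roles, and 82 of 110 distinct genes passed the filter. Without the pairing 1 rose and 2 fell (limma; voom called 2, and 14 had an unadjusted p under 0.05). Of all 12910 genes tested, 1.08% were called in that fit. At an unadjusted p under 0.05, 956 of them were higher and 1201 lower. With the pairing 30 rose and 21 fell, beside 22.2% of all genes tested called higher and 21.7% called lower. The lists did not move one way. The genes called from the M-band and pump list and the glycogen and glycolysis list were all higher, those from the methyl donor cycle all lower, and 4 of the other 5 lists held both.

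All 8 genes of M-band proteins and ion pumps, which use ATP or sit beside creatine kinase in muscle, rose in the paired model (22.2% of all genes tested did), with a median log2 difference of 0.30. Atp2a1, the fast-muscle calcium pump of the sarcoplasmic reticulum, went from 6617 ± 3309 to 9600.3 ± 3757 scaled reads (SD, n = 4 each; log2 difference 0.60, paired limma adjusted p = 0.000372, 0.515 without the pairing). Atp2a3, a calcium pump of the same family, had a log2 difference of 1.08 (paired adjusted p = 0.000121). Of 9 genes of muscle glycogen use and glycolysis, 5 rose and 4 were not called in the paired model, where 22.2% of all genes rose. Pygm, the muscle glycogen phosphorylase, was called in both models, with a log2 difference of 0.71 ± 0.13 (SE, limma without the pairing, adjusted p = 0.0487; paired 0.000105). The unpaired call of Pygm was lost in 13 of 17 alternatives. It was lost with voom, a pseudocount of 0.1, no filter, a filter of 5 CPM, and total-count or upper-quartile rescaling (limma, adjusted p 0.0504 to 0.0595). It was also lost without any single library but GFP library 2 (up to 0.162). Pgam2, the muscle phosphoglycerate mutase, had 0.58 and the phosphorylase kinase subunit Phka1 0.20 (paired adjusted p = 0.00032 and 0.0072).

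Adenylate kinases pass phosphates between adenine nucleotides, and AMP deaminases remove the AMP they leave. In the paired model 3 of the 9 tested genes of this list rose, 2 fell and 4 were not called, and over all genes 22.2% rose and 21.7% fell. The cytosolic Ak1 rose by 0.33 and Ak3 of the mitochondrial matrix by 0.35 on the log2 scale (paired limma, adjusted p = 0.000333 and 0.000551; 0.208 and 0.199 without the pairing). Of 12 mitochondrial partners, which include the channels and carriers that pass ATP and ADP across the membranes, 1 rose, 4 fell and 7 were not called, beside the same 22.2% and 21.7% of all genes. The adenine nucleotide carrier Slc25a4 had a log2 difference of 0.04 and the channel Vdac1 -0.09 (paired adjusted p = 0.467 and 0.104). Samm50 fell by 0.23, Ppif by 0.37 and Immt by 0.12 on the log2 scale (paired adjusted p = 0.0045, 0.00747 and 0.0303), and the call of Immt was lost with TMM rescaling (0.0544) and without any single pair (up to 0.104).

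**Figure D5:**
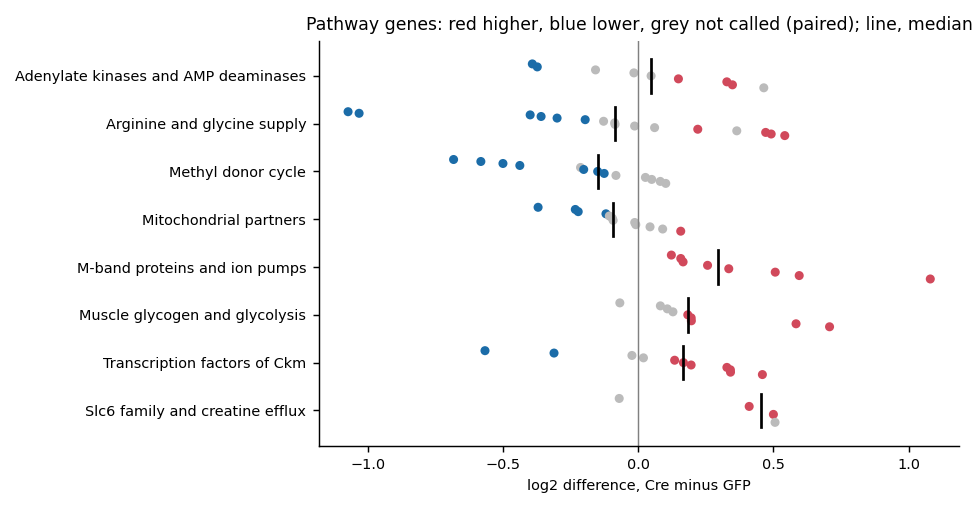
Log2 difference (Cre minus GFP) of the tested genes of 8 lists; points are genes coloured by their call in the paired model and the black line is the median of the list. M-band and pump genes lie above 0 with a median of 0.30, and the methyl donor cycle has a median of -0.15.

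Of 13 tested genes of the methyl donor cycle, which provides the methyl group that Gamt adds, 0 rose, 7 fell and 6 were not called in the paired model, which called 22.2% of all genes higher and 21.7% lower. Mtrr, which reactivates methionine synthase, went from 1263 ± 103 to 842 ± 36.9 scaled reads (SD, n = 4 each), a log2 difference of -0.58 ± 0.08 (SE, limma without the pairing, adjusted p = 0.0241; paired 3.76e-05). The folate enzyme Mthfd1 had -0.68 and Ahcy, which clears the S-adenosylhomocysteine that Gamt and other methyltransferases leave, -0.50 (paired adjusted p = 1.23e-05 and 0.002). Of 16 tested genes of arginine and glycine supply, 4 rose, 6 fell and 6 were not called, where the share over all genes was again 22.2% higher and 21.7% lower. Gcat, a glycine-forming enzyme of threonine breakdown, fell in both models, from 126 ± 20.0 to 59.3 ± 6.5 scaled reads (SD, n = 4 each; log2 difference -1.07, limma without the pairing, adjusted p = 0.0333; paired 0.000186). Shmt1, which makes glycine from serine, had -1.03 and the arginine carrier Slc7a2 0.47 (paired adjusted p = 4.18e-06 and 0.000278). The unpaired call of Mtrr was lost without any single library but GFP library 2 (adjusted p up to 0.0957), and that of Gcat without any single library (up to 0.116).

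Among 11 tested transcription factors of the Ckm regulatory regions, 7 rose, 2 fell and 2 were not called in the paired model (over all genes, 22.2% rose and 21.7% fell). Mef2a rose by 0.34 and Mef2d by 0.17, and the serum response factor Srf fell by 0.31 on the log2 scale (paired limma, adjusted p = 0.000412, 0.0187 and 0.00229), the call of Mef2d being lost without pair 1, 2 or 4 (up to 0.0912). Of the Slc6 carriers related to Slc6a8 and the efflux carrier Slc16a12, 4 of 19 passed the filter, and 2 rose in the paired model, as did 22.2% of all genes. The taurine transporter Slc6a6 went from 26374 ± 1657 to 35041 ± 1781 scaled reads (SD, n = 4 each), a log2 difference of 0.41 ± 0.05 (SE, paired limma, adjusted p = 0.000219; 0.0606 without the pairing). Its groups did not overlap, as was found, higher in Cre, for 4.41% of all genes tested. The groups of Slc6a8 overlapped only through GFP library 1, at 7251 scaled reads against 4419 to 4789 in the other GFP libraries. Slc6a17 had a log2 difference of 0.50 (paired adjusted p = 0.00156), and Slc6a19 had 0.51 at a mean of 22 in Cre and 18.3 in GFP (paired adjusted p = 0.284).

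The genes whose pattern over the 8 libraries was most like that of a kinase were ranked by Pearson's r of log2(value + 1), given as a description, since the points share the Cre and GFP contrast and the replicate numbers. For Ckmt1 they were Emilin1 (0.983), an extracellular matrix glycoprotein gene, Tcea3 (0.981) and Pear1 (0.971). Emilin1 had 2943 to 3463 scaled reads in GFP and 4388 to 5343 in Cre, and like Ckmt1 it was lowest in GFP library 4 and highest in Cre library 4. For Ckm they were Cdk5r1 (0.985), Hunk (0.982) and the splicing regulator gene Rbfox1 (0.980), which stood at 140 and 221 in replicate 1 of GFP and Cre and at or above 887 in the other 6 libraries. For Ckb they were Fitm1 (0.990), a lipid droplet gene of muscle, Ttc7b (0.982) and Tceal3 (0.964).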

How the data were processed

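RNA of 8 cultures of mouse muscle stem cells (4 Cre, 4 GFP) was sequenced from stranded libraries, as the labels' protocols state. The deposited values are a score: read counts per gene that the authors scaled between libraries and rounded to whole numbers. The submitters' processing notes name STAR 2.5.3a, featureCounts (Subread) 1.5.3, DESeq and the builds mm10 and GRCm38. Scaled totals were 27897860 to 28876348, and read depth was estimated from the spacing of low values. The table held 20976 genes.

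Values were tested as log2(value + 1) with limma 3.58.1 (trend) in R 4.3.3, over the 12910 genes with at least 1 CPM in 4 libraries. P-values were adjusted by Benjamini-Hochberg at 0.05. The main model has no block. The replicate number was added as a block in an alternative, since the labels give both groups the numbers 1 to 4 and same-numbered libraries deviated together (r of 0.820 to 0.908 in all 4 pairs). The submitters state 4 mice per condition, and the sources used here do not say that equal numbers mark 1 mouse. P-values therefore measure the spread between these libraries. The fits were tested on simulated data. Exonic lengths came from GENCODE M21 and promoters from RefSeq (GRCm38.p6), read with Python 3.11.15. Alternatives were voom, other pseudocounts, filters and rescalings, and leaving out libraries.

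The members and lists were chosen with earlier results of these data known. Genes were named as the members, up to 3 of each list with the smallest p, the tested neighbours of Ckmt1 within 100 kb, the 3 genes most like Ckmt1, Ckm and Ckb each, and Chd4. Slc25a4, Vdac1, Wdr76, Tubgcp4 and single markers were named after their values were seen, and some genes that the rule names are not reported here. Marker lists covered muscle stem cells and myoblasts, myocytes, fibro-adipogenic, endothelial, pericyte, blood, neural and glial, and epithelial cells.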

Additional observations from a re-analysis of the deposited data

Results flagged for a closer look

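Among 78 groups of 4 libraries tested for a library far from the other 3 (Dixon's ratio of gap to range, at its 95% critical value), 6 were found, and chance gives about 1 in 20. Slc6a8 stood at 7251 scaled reads in GFP library 1, against 4419 to 4789 in the other GFP libraries (ratio 0.869). In Cre library 1, Slc6a17 stood at 579 (others 188 to 239, ratio 0.870) and Map1a at 5275 (others 2827 to 3212, ratio 0.843). In Cre library 4, Ahcy stood at 347 (others 182 to 205, ratio 0.861) and Ell3 at 36 (others 59 to 63, ratio 0.852). Pdia3 stood at 30724 in GFP library 4 (others 45456 to 47514, ratio 0.877).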

How the results depend on the processing

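Without the pairing, limma called 140 genes. The count was 85 with a filter of 5 CPM, 11 to 58 with 1 library left out, and 5665 with the replicate block. Of the pathway genes 3 were called, against 1 with the filter of 5 CPM, 0 to 2 with 1 library left out and 51 with the replicate block. Of the tested neighbours of Ckmt1 0 were called, against 0 to 1 with 1 library left out and 5 with the replicate block. With the replicate block and 1 pair left out, 4338 to 5013 genes and 38 to 49 pathway genes were called. The block pairs libraries by number. The log2 difference of Ckmt1, 3.43, became 2.61 with a pseudocount of 5 and 3.02 to 3.63 with 1 library left out. The difference of the log2 ratio of Ckb to Ckm, -0.0042, became 0.023 with a pseudocount of 5 and -0.42 to 0.49 with 1 library left out. With 1 library left out, the log2 difference ranged from -0.15 to 0.87 for Ckm, -0.12 to 1.16 for Slc6a19, -0.24 to 0.10 for Catsper2, -0.081 to 0.22 for Pdia3 and -0.26 to 0.14 for Ell3, and in pairs from -0.13 to 0.041 for Ell3. The cause was not tested. Over 80 results for single genes and 1152 alternative values, 1067 kept direction and side of the threshold, 43 lost the call, 32 gained one and 10 changed sign. At 1 to 6 scaled reads, the level of Ckmt1 in GFP is limited by depth.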
